A study of Mus musculus with 6 samples.

Results

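The dystrophin glycoprotein complex was followed through 8 of its genes, Dmd, Utrn, Dag1, Sgca, Sgcb, Sgcd, Dtna and Sspn, in differentiating mouse muscle cells. Members were the Affymetrix probe sets, groups of short oligonucleotides read as 1 value, that the platform annotation assigns to 1 of these genes alone. None was dropped, which gave 25 of the 45033 probe sets fitted and 8 of 18192 genes. Dtna had 7 probe sets, Dmd and Dag1 had 4 each, Utrn and Sgcb 3 each, Sspn 2, and Sgca and Sgcd 1 each.

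The cells were C2C12, a line of mouse myoblasts that stop dividing and fuse into myotubes in low serum, and RNA of 6 samples was read on 1 array each. Differentiation had run for 28 hours in 2% horse serum in both groups. Cells of 3 samples were transfected with a short hairpin RNA (shRNA) to GFP as control, those of the other 3 with one directed at PRDM2, a histone H3 lysine methyltransferase. The samples are named here by their labels as control and knockdown replicates 1 to 3, and the comparison asks how expression in differentiating conditions differs when PRDM2 is targeted. The labels call the samples of a group biological replicates. They name 1 cell line and do not say whether the shRNA was stably expressed or whether cells were cloned.

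The complex ties the actin cytoskeleton of a muscle fibre to the basement membrane. Dystrophin binds actin inside the cell and the membrane protein beta-dystroglycan, while alpha-dystroglycan, made from the same Dag1 transcript, binds laminin outside through its sugar chains. Sarcoglycans and sarcospan hold the membrane part together, and dystrobrevin and the syntrophins bind on the cytoplasmic side. Utrophin, a close relative of dystrophin, takes its place in immature fibres and at the neuromuscular junction. Loss of dystrophin, or of the alpha, beta or delta sarcoglycan, causes muscular dystrophy.

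The arrays had median intensities of 10.7 to 11.4 units, and precision is limited by their number. Of 16 myotube markers, 14 read above 16 units on every array, among them Myog, Ckm and Acta1, while all 6 endothelial markers and 4 of 6 leukocyte markers read below 16 units on every array. Prdm2, the target, was not lower on the knockdown arrays. Its 3 probe sets had log2 fold changes of 0.07 (SE 0.18), 0.12 (SE 0.09) and 0.15 (SE 0.19), so every direction given here rests on the labels. Where those probe sets lie relative to the shRNA target was not analysed here. Control replicate 2 stood apart from the other controls, and whether it and knockdown replicate 2 carry the right labels was not tested. Over the 11259 brightest probe sets, the scaled median absolute deviation of its log2 difference from knockdown replicate 2 was 0.08, the smallest of any pair of arrays, against 0.20 for the next pair. Among the 16 member probe sets above 16 units on every array, 10 had knockdown replicate 2 as the array nearest to control replicate 2, or 62.5%, beside 59.2% of all such probe sets. Values are therefore given with and without control replicate 2.

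With all 6 arrays, none of the 25 member probe sets passed an adjusted p of 0.05 (limma), beside 0% of all probe sets. At an unadjusted p under 0.05 there were 4 of 25, beside 2.94% of all probe sets. These were 3 probe sets of Dag1 and 1 of Dtna. Under the replicate block this count was 6 of 25, 4 of Dag1 and 2 of Dtna, beside 7.84%, and again 0 passed after adjustment. In 4 of 25 the values of the groups did not overlap, beside 7.24% of all probe sets, and all 4 were higher on the knockdown arrays, beside 3.18%. These were 3 of Dag1, which share 1 gene, and 1 of Dmd close to the floor of the scale. With the deposited scaling or median centring, 2 of Dag1 did not overlap, and 1 of Dtna did not overlap on the lower side. Median log2 fold changes were 0.02 over the members and 0.00 over all probe sets. Without control replicate 2, 1 member probe set passed, a probe set of Dag1, beside 0.529% of all probe sets. At an unadjusted p under 0.05 there were then 7 of 25, 4 of Dag1 and 3 of Dtna, beside 10.2%. Counted by the brightest probe set of each gene this was 2 of 8, beside 13.4% of genes. The groups did not overlap in 9 of 25, beside 26.4%. Of these, 4 were of Dag1, 3 of Dtna and 1 each of Dmd and Utrn. With both arrays numbered 2 left out they did not overlap in 13 of 25, beside 39.2%. The p-values of such fits take no account of the choice of array.

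**Figure D1:**
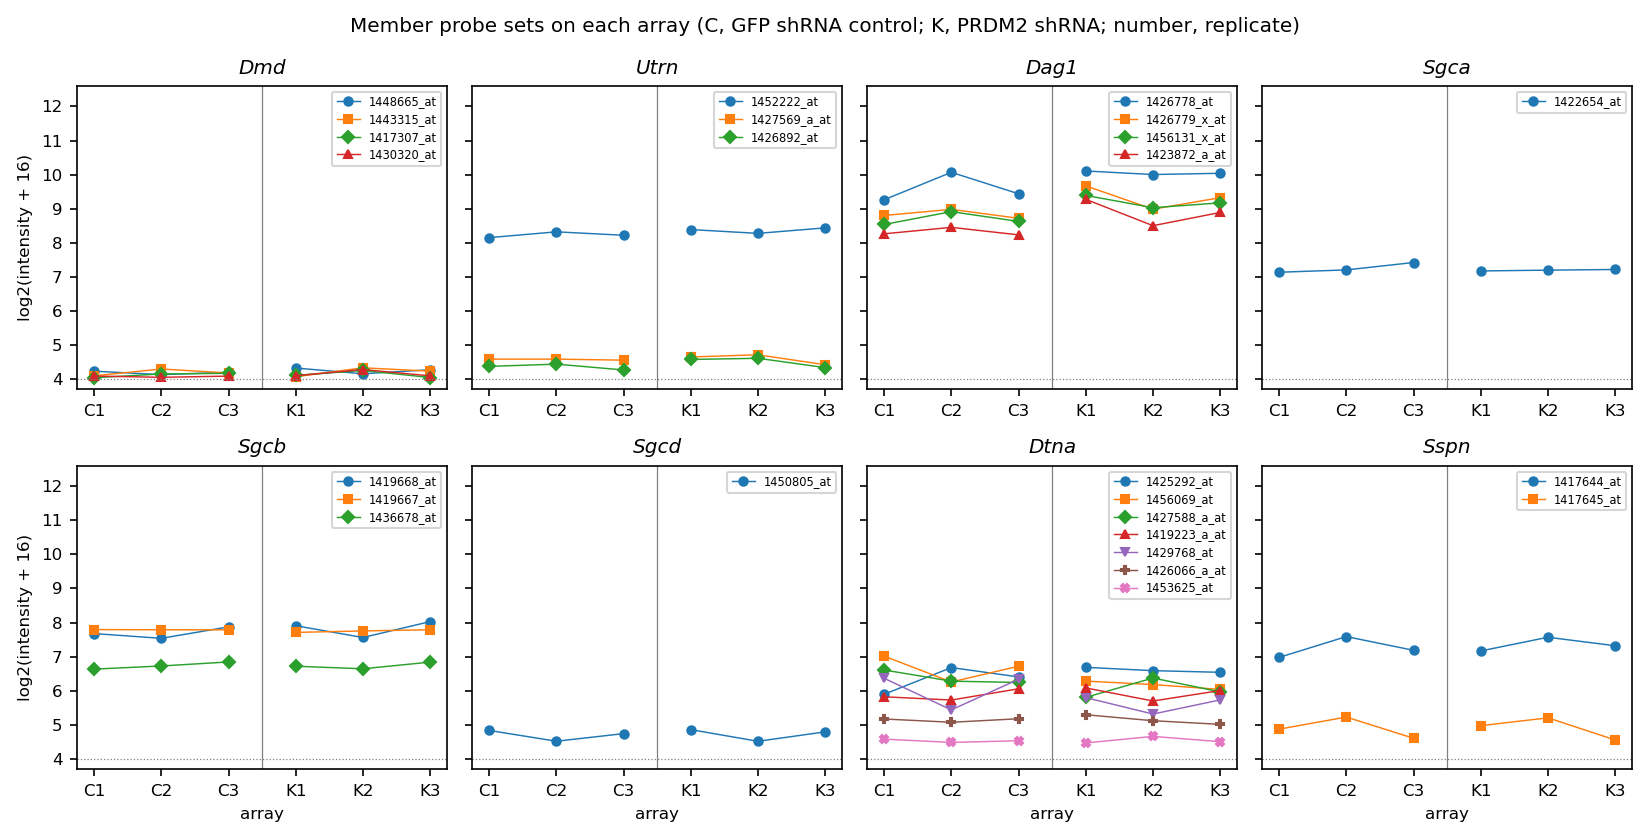
Each panel plots the probe sets of 1 member gene as quantile-normalized log2(intensity + 16) on the y axis against the 6 arrays, with C for control, K for knockdown and the replicate number; lines join the arrays of a group and the dotted line marks the floor of the scale, 4. The 4 probe sets of Dmd lie at the floor on every array, and those of Dag1 are lowest in control replicates 1 and 3.

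Dystroglycan is the receptor that links the complex to laminin. Each of the 4 Dag1 probe sets stood higher on the knockdown arrays, by 0.46 to 0.57 on the log2(intensity + 16) scale, which is 1.38 to 1.49 times the control level. None of these passed the threshold with all 6 arrays (adjusted p = 1.00 for each, limma, n = 3 per group). The mean of the 4 probe sets gave a log2 fold change of 0.51 (SE 0.15, adjusted p = 1.00).

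Probe set 1426778_at of Dag1 gave 627, 1073 and 652 units for the controls, in the order of their numbers, and 1149, 1012 and 941 units for the knockdown arrays. Controls 1 and 3 were low, and control 2 lay among the knockdown arrays, so the groups overlapped. Its log2 fold change was 0.46 (SE 0.20, 95% interval -0.02 to 0.94). Without control replicate 2 it rose by 0.70 (SE 0.09, adjusted p = 0.049), a call that was lost with the deposited scaling, at 0.68 (adjusted p = 0.095). Without control replicate 1 the value was 0.30.

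Probe set 1423872_a_at read 301, 341 and 272 units in the controls and 643, 342 and 420 in the knockdown arrays. Knockdown replicate 1 was the high array here, and knockdown replicate 2 exceeded control replicate 2 by 0.05 in log2 units. This gave a log2 fold change of 0.57 (SE 0.19, 95% interval 0.12 to 1.03), and 0.38 without knockdown replicate 1. Probe set 1456131_x_at read 372, 480 and 360 units in the controls and 696, 505 and 512 in the knockdown arrays. The groups did not overlap, with a gap of 0.12 in log2 units. Its log2 fold change was 0.50 (SE 0.13, 95% interval 0.18 to 0.83).

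Probe set 1426779_x_at read 450, 504 and 385 units in the controls and 854, 491 and 570 in the knockdown arrays. In deposited units control replicate 2 exceeded knockdown replicate 2, whereas after normalization the groups were apart by 0.0052 in log2 units. The difference was 0.49 in log2 units (SE 0.18, 95% interval 0.07 to 0.91), and 0.32 without knockdown replicate 1. The suffix _x_at marks probe sets whose oligonucleotides can also match other sequences. Across the 6 arrays the 4 probe sets of Dag1 correlated pairwise at Pearson's r of 0.71 to 0.998, a description of 6 arrays that share 1 normalization. With both arrays numbered 2 left out, 0 of the 25 members passed, beside 0.127% of all probe sets, and the Dag1 probe sets had adjusted p of 0.12 to 0.19. Only when the replicate number was added as a block to those 4 arrays did 3 of the 4 probe sets pass, at log2 fold changes of 0.72, 0.74 and 0.83 (adjusted p = 0.041, 0.041 and 0.039, limma). The fourth, 1456131_x_at, stood at 0.70 (adjusted p = 0.052). In that fit 5 of the 25 members passed, 3 higher and 2 lower, beside 1.59% of all probe sets, 0.899% higher and 0.693% lower. With 4 arrays and a block, little is left to estimate the spread of a given probe set. The p-values of that fit therefore rest largely on variance pooled over all probe sets, and its pairing was read from these same data.

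**Figure D2:**
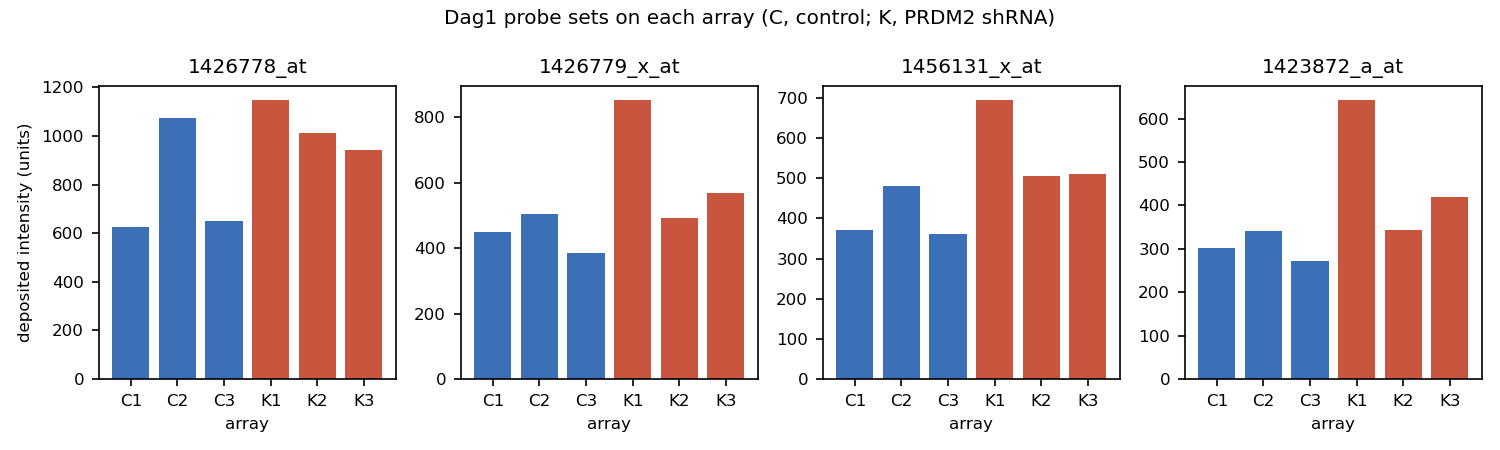
Bars give the deposited intensity, in units, of each Dag1 probe set on the 6 arrays, with controls (C) in blue and knockdown arrays (K) in red, and 1 panel per probe set with its own y axis from 0. In every panel control replicates 1 and 3 are the lowest bars and knockdown replicate 1 is the highest. In 1426778_at control replicate 2 lies among the knockdown arrays.

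Cell type markers also differed between the arrays. The summed intensity of the 6 smooth muscle markers was 4494, 5687 and 4572 units in the controls and 7365, 5822 and 6113 in the knockdown arrays. The groups did not overlap, and Acta2 alone read 3594 to 4246 units. Of the 6, 5 read above 16 units on every array and Myh11 below on every array, 0 passed with all arrays, and 2 (Tagln and Actg2, both higher) passed without control replicate 2, beside 1.6% of all genes. In that fit 2 of 7 fibroblast markers also passed, Col1a1 higher and Dcn lower, as did Myf5, lower, of 8 myoblast markers. Summed myotube markers were 25460, 30450 and 30880 units in the controls and 32330, 30590 and 29850 in the knockdown arrays, with control replicate 1 the lowest. The part of these lists in the values of Dag1 was not tested. In RNA from whole cultures, fewer cells of a type and less RNA per cell cannot be told apart.

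The promoter of Dag1 is shown because its probe sets varied together, beside those of Dmd and Sgca, whose values follow. Each window runs from 250 bases before to 50 after a transcript start in RefSeq, build GRCm38.p6, written 5′ to 3′ on the strand of the gene. Capitals mark E-boxes (CANNTG, the motif class bound by MyoD and myogenin) and GC boxes (GGGCGG, on both strands, the class bound by Sp1), and no E-box overlaps a GC box in these windows.
Dag1, chr9:108263766-108264065, minus strand: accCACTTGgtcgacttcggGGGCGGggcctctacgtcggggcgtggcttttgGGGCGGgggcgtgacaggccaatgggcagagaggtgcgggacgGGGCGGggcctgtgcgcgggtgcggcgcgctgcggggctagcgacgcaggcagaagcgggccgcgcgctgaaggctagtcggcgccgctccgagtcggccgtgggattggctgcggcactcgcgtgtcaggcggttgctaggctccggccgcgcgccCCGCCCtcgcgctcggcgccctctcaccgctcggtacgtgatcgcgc
Dmd upstream start, chrX:82948620-82948919, plus strand: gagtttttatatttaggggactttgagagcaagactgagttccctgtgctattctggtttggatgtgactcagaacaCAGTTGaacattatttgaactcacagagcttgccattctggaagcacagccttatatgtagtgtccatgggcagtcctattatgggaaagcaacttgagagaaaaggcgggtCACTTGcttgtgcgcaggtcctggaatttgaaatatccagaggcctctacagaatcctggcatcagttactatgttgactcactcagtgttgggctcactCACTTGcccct
Dmd downstream start, chrX:85048045-85048344, plus strand: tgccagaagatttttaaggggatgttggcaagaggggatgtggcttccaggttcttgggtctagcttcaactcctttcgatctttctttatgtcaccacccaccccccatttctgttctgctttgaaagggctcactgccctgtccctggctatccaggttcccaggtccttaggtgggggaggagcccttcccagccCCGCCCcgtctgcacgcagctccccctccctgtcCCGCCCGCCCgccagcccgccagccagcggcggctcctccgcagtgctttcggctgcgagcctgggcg
Sgca, chr11:94976278-94976577, minus strand: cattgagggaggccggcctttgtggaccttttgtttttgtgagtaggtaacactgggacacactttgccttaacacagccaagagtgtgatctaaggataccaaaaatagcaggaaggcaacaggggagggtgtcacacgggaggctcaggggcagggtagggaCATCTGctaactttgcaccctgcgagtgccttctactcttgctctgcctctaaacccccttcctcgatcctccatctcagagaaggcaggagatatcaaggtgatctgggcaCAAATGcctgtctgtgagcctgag
The Dag1 window held 4 GC boxes and 1 E-box, with 75.3% G and C and 47 CpG dinucleotides, and the window of a second Dag1 start, which overlaps it, held 3 of the same GC boxes. Of all 32851 windows of 300 bases, 35.7% held a GC box, 5.49% held 4 or more, and 72.3% held an E-box. The upstream Dmd window held 3 E-boxes and 0 GC boxes, the downstream one 0 and 3, and the Sgca window 2 and 0. A match to the MEF2 consensus, found in 3.19% of all windows, was present in the upstream Dmd window and in none of the other 3. Motif matches are letters in a window and were not measured as binding.

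Dystrophin was measured only by probe sets at the floor of the scale, and which Dmd transcripts they read was not analysed here. All 4 probe sets of Dmd read below 16 units on every array, between 0.41 and 4.08 units, where array medians were above 10. Probe set 1448665_at read 2.78, 1.47 and 2.36 units in the controls and 4.05, 1.76 and 3.48 in the knockdown arrays. The groups overlapped in 3 of the 4 probe sets. The exception, 1430320_at, read 0.98, 0.60 and 1.01 in the controls and 1.10, 3.39 and 1.10 in the knockdown arrays, and differed by less than the offset of 16 units throughout. Log2 fold changes were 0.02 to 0.08, and at these intensities their size is set by the offset. The deposited table has no detection calls.

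Utrophin was measured by 1 bright probe set. Probe set 1452222_at read 278, 312 and 269 units in the controls and 343, 292 and 306 in the knockdown arrays. Knockdown replicate 2 lay below control replicate 2 and the groups overlapped. Its log2 fold change was 0.14 (SE 0.08, 95% interval -0.06 to 0.33, adjusted p = 1.00, limma), and 0.18 (SE 0.09) without control replicate 2. The other 2 probe sets read below 16 units on every array, with log2 fold changes of 0.02 and 0.15.

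The sarcoglycans, the transmembrane subunits that brace dystroglycan, had no probe set past the threshold. Sgca, which encodes the muscle-specific alpha subunit, read 128, 137 and 148 units in the controls and 135, 131 and 123 in the knockdown arrays. Its groups overlapped, with a log2 fold change of -0.06 (SE 0.09, 95% interval -0.28 to 0.16). Sgcb, the beta subunit, had 3 probe sets above 16 units on every array. Probe set 1419668_at read 196, 176 and 209 units in the controls and 238, 173 and 227 in the knockdown arrays. Both arrays numbered 2 were low and the groups overlapped, at a log2 fold change of 0.14 (SE 0.15, 95% interval -0.21 to 0.48), which ranged from 0.0384 to 0.27 when 1 array was left out. Probe set 1419667_at ranged from 190 to 215 units over the 6 arrays, with a log2 fold change of -0.04 (SE 0.06, 95% interval -0.19 to 0.12), and 1436678_at from 85.3 to 94.3 units, with 0.00 (SE 0.09, 95% interval -0.21 to 0.21). Sgcd, the delta subunit, was dim, at 12.3, 6.61 and 11.1 units in the controls and 13.1, 6.73 and 11.9 in the knockdown arrays. Both arrays numbered 2 were again the low ones, at a log2 fold change of 0.02 (SE 0.13).

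Sarcospan, a small membrane protein that binds the sarcoglycans, was brightest on the arrays numbered 2 of both groups. Probe set 1417644_at of Sspn read 114, 183 and 124 units in the controls and 134, 174 and 134 in the knockdown arrays. The arrays numbered 2 were the highest of each group and the groups overlapped. The difference came to 0.10 in log2 units (SE 0.18, 95% interval -0.32 to 0.53), and 0.27 (SE 0.14, adjusted p = 0.63) without control replicate 2. Probe set 1417645_at read 13.0, 21.9 and 8.59 units in the controls and 15.7, 20.9 and 7.79 in the knockdown arrays, with a log2 fold change of 0.01 (SE 0.21). A difference between replicate numbers was not tested.

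Alpha-dystrobrevin, the cytoplasmic partner of dystrophin that is spliced into several isoforms, differed in direction between its probe sets. Of the 7 probe sets of Dtna, 4 stood on the higher side and 3 on the lower side of the knockdown comparison, from 0.28 to -0.50, and none passed with all 6 arrays. Across the 6 arrays the pairs above 16 units correlated between -0.87 and 0.85, where those of Dag1 were all positive. Which isoform each probe set reads was not analysed here.

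Probe set 1456069_at of Dtna read 117, 63.96 and 85.1 units in the controls and 63.35, 57.9 and 46.1 in the knockdown arrays. Controls 1 and 3 were high, and control replicate 2 lay just above knockdown replicate 1. This gave a log2 fold change of -0.50 (SE 0.19, 95% interval -0.95 to -0.04, adjusted p = 1.00), and -0.32 without control replicate 1. Without control replicate 2 it was -0.70 (SE 0.13, adjusted p = 0.10, limma). The groups overlapped after quantile normalization and did not in deposited units. Probe set 1429768_at read 67.5, 28.5 and 61.9 units in the controls and 40.3, 23.9 and 34.8 in the knockdown arrays. Its low control was replicate 2, below knockdown replicates 1 and 3. It stood at a log2 fold change of -0.43 (SE 0.27, 95% interval -1.08 to 0.22) and -0.74 (SE 0.16, adjusted p = 0.14) without control replicate 2. Without control replicate 1, control replicate 3 or knockdown replicate 2 it was -0.27, -0.29 or -0.28. The knockdown array was the lower one in all 3 same-numbered pairs, and with the replicate block the SE was 0.11 (adjusted p = 0.63).

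Probe set 1425292_at of Dtna read 43.4, 90.8 and 65.8 units in the controls and 90.01, 81.9 and 71.5 in the knockdown arrays. In deposited units control replicate 2 was the highest array, and after normalization knockdown replicate 1 was. The probe set ran against the previous pair, at a log2 fold change of 0.28 (SE 0.19, 95% interval -0.18 to 0.74). Without control replicate 2 it was 0.45 (SE 0.16, adjusted p = 0.38), and without control replicate 1 it was 0.0625. Probe set 1427588_a_at read 83.3, 65.3 and 57.2 units in the controls and 40.5, 68.3 and 43.0 in the knockdown arrays, with a log2 fold change of -0.33 (SE 0.17, 95% interval -0.74 to 0.08). Without control replicate 1 or knockdown replicate 1 it was -0.21. The remaining 3, 1419223_a_at, 1426066_a_at and 1453625_at, had log2 fold changes of 0.06, 0.00 and 0.01. With both arrays numbered 2 left out and the replicate number as a block, 1456069_at and 1429768_at passed, falling by 0.71 and 0.59 on the log2 scale (adjusted p = 0.033 and 0.049, limma). On the same 4 arrays without the block neither passed (adjusted p = 0.22 and 0.13). As for Dag1, the p-values of the block fit rest largely on variance pooled over all probe sets.

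**Figure D3:**
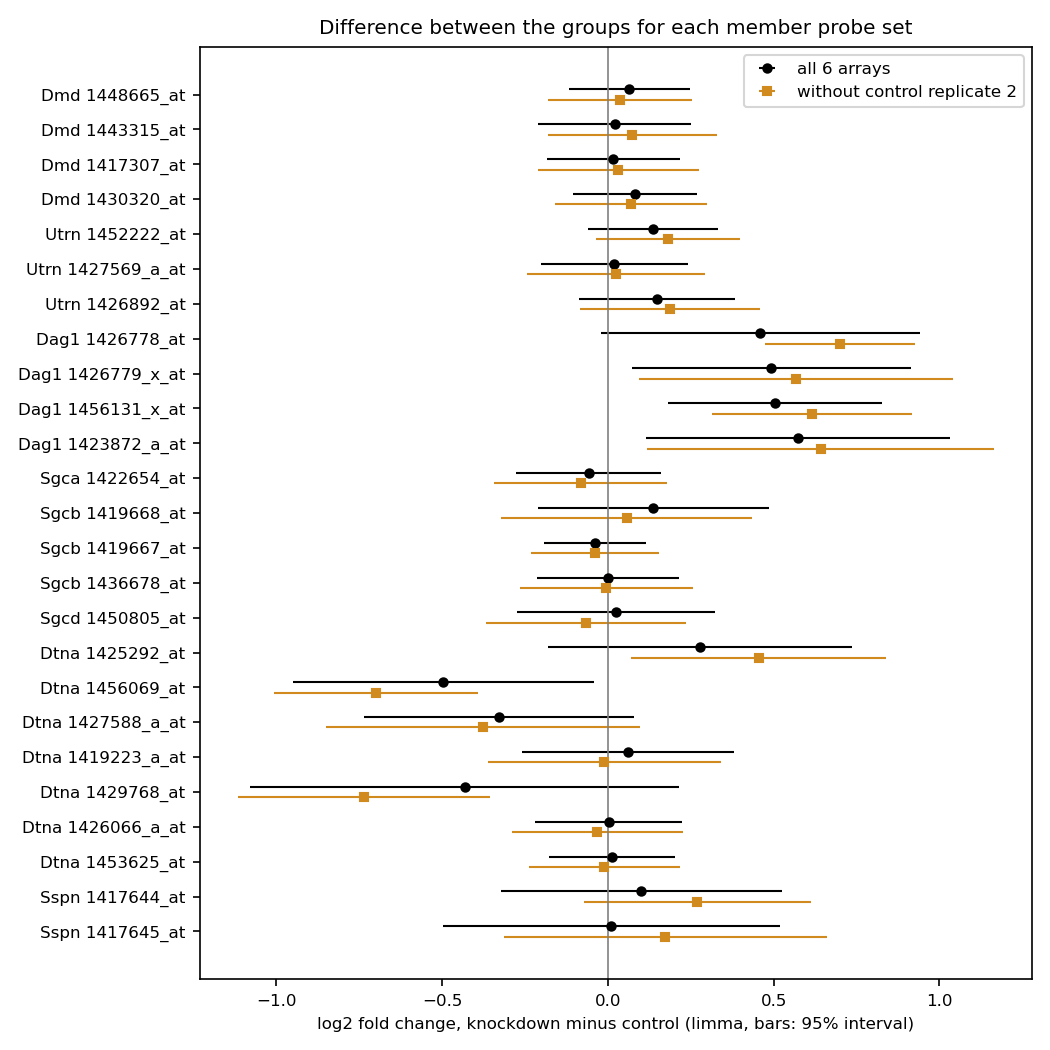
The x axis gives the log2 fold change of knockdown minus control for each of the 25 member probe sets, with all 6 arrays (black circles) and without control replicate 2 (orange squares), and bars give 95% intervals from limma. Dag1 lies on the higher side in all 4 probe sets, and Dtna spreads from 0.28 to -0.50.

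Among members with a mean at or above the median probe set, 1429768_at of Dtna had the widest range over the arrays. The 5 genes whose values followed it most closely were Dtl, Zwint, Pola2, Tmem63b and Iffo2, at Pearson's r of 0.999, 0.996, 0.993, 0.992 and 0.990 over 6 arrays. They were the highest of 8856 genes compared, of which 525 exceeded 0.9. Dtl read 52.7, 24.4 and 50.1 units in the controls and 33.2, 20.1 and 30.1 in the knockdown arrays, low in both arrays numbered 2.

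Other genes of the complex and its surroundings were taken from 4 lists, with 56 genes measured by a probe set of their own. With all 6 arrays 0 of the 56 passed (limma), beside 0% of all genes, and 4 had an unadjusted p under 0.05, beside 3.3% of genes. The groups did not overlap in 3 with knockdown higher and 2 with knockdown lower, beside 2.93% and 4.24% of all genes. The median log2 fold change was 0.01 over the 56 and 0.00 over all genes. Without control replicate 2, 2 rose and 0 fell, beside 0.896% and 0.704% of all genes. They were Cav3 and Bgn.

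Cav3, the muscle caveolin, which binds beta-dystroglycan, read 17.7, 234 and 23.65 units in the controls and 290, 231 and 154 in the knockdown arrays. Controls 1 and 3 were low, and control replicate 2 lay within the range of the knockdown arrays. The log2 fold change was 1.77 (SE 0.73, adjusted p = 1.00) with all arrays, and Cav3 rose by 2.68 (SE 0.20, adjusted p = 0.0072) without control replicate 2. Bgn, which encodes biglycan, a matrix proteoglycan that binds alpha-dystroglycan and sarcoglycans, read 791, 2486 and 794 units in the controls and 2302, 2629 and 2075 in the knockdown arrays. The same 2 controls were low. Its log2 fold change was 0.99 (SE 0.44, adjusted p = 1.00), and it rose by 1.55 (SE 0.12, adjusted p = 0.0072) without control replicate 2.

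The 14 enzymes that build the laminin-binding sugars of dystroglycan stood at a median log2 fold change of 0.01, with 7 on each side and 0 past the threshold in either fit. Pomgnt1, an enzyme of O-mannose glycan extension, read 160, 143 and 135 units in the controls and 125, 128 and 116 in the knockdown arrays. Its groups did not overlap, at a log2 fold change of -0.20 (SE 0.08, adjusted p = 1.00). Pomgnt2, which extends another O-mannose glycan, read 13.2, 10.99 and 15.35 units in the controls and 20.25, 15.43 and 15.85 in the knockdown arrays. These values lie near the offset, and the groups did not overlap, at a log2 fold change of 0.18 (SE 0.09). The other probe set of Pomgnt2 had the opposite sign. Among 10 matrix ligands 6 were on the higher side, at a median of 0.07. Lamb1, the laminin beta-1 chain, read 394, 446 and 339 units in the controls and 542, 447 and 376 in the knockdown arrays, which overlapped, with 0.21 (SE 0.11, adjusted p = 1.00).

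The 6 other sarcoglycan, syntrophin and dystrobrevin genes had a median of -0.07, with 1 on the higher side and 0 past the threshold in either fit. Dtnb, the second dystrobrevin, stood at -0.19 (SE 0.14), with its other probe set on the opposite side, and Sntg1, a syntrophin, read under 3 units on every array. Of 26 cytoplasmic and membrane partners 15 were on the higher side, at a median of 0.02. Ank3 encodes an ankyrin that helps place dystrophin at the membrane. It read 90.5, 60.3 and 76.4 units in the controls and 46.0, 55.5 and 38.3 in the knockdown arrays. Its groups did not overlap, at a log2 fold change of -0.52 (SE 0.15, adjusted p = 1.00). Of its 6 probe sets, 2 lay on the opposite side. Synm, an intermediate filament protein that binds dystrobrevin, read under 9 units on every array. Its groups did not overlap, at a log2 fold change of 0.18 (SE 0.07), and its other probe set had the opposite sign. With both arrays numbered 2 left out 2 partner genes rose, Cav3 and Bgn, beside 0.363% of all genes. When the replicate number was added as a block, 4 rose and 1 fell, beside 2.27% and 1.69% of all genes. These were Cav3, Bgn, Ank2 and Pgm5, and Ank3, of which Ank2 and Pgm5 are named after their values were seen. The block fit has the limit given for Dag1.

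**Figure D4:**
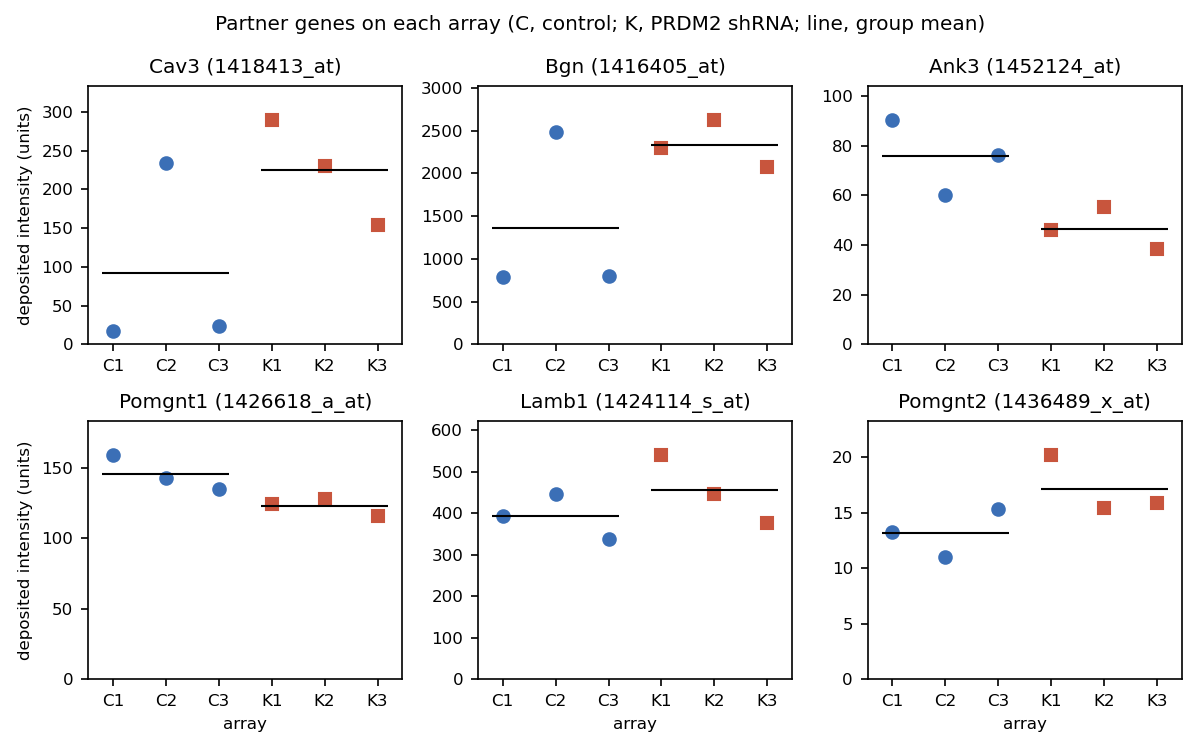
Each panel gives the deposited intensity, in units, of 1 partner gene on the 6 arrays, with circles for control (C), squares for knockdown (K) and a line at each group mean; the y axes start at 0 and differ. In Cav3 and Bgn, control replicates 1 and 3 are low and control replicate 2 lies at the level of the knockdown arrays.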

How the data were processed

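Total RNA of 6 C2C12 samples was read on Affymetrix mouse arrays, and groups came from the sample titles. The authors deposited 1 linear intensity per probe set and array. GCOS and PLIER are named in the submitters' processing notes, and no source used here states how arrays were scaled to each other. Of 45101 probe sets, 64 controls were left out, as were 4 probe sets of Gngt1 that held the gene's Entrez number in control replicate 2. Gene names came from the platform annotation.

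Values were taken as log2(intensity + 16), so that folds of dim genes are understated, and quantile-normalized. The group difference was tested two-sided with limma 3.58.1 under R 4.3.3, without a block, on all 45033 probe sets, with Benjamini-Hochberg adjustment over all of them. Partner genes were fitted as 18192 genes, each by its brightest probe set. Of partner genes the text names those past the threshold with all arrays or without control replicate 2 and, per list, the 2 of smallest p. For the member of widest range it names the 5 genes of highest correlation, skipping clone names. Members and lists were chosen with earlier results of these data known. Printed intensities are as deposited.

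Over 18192 genes, arrays with the same number deviated together from their group means, with correlations of 0.34, 0.59 and 0.66. All were above 0.1, so the fits with a replicate block read the numbers as pairs. This pairing comes from the data and not from the labels. Deviations within a group cancel out, so the closeness of the arrays numbered 2 can also raise the other correlations. By scaled median absolute deviation, control replicate 1 lay nearer to control replicate 3 (0.22) than to knockdown replicate 1 (0.31). Control replicate 3 lay nearest to knockdown replicate 3 (0.20). Alternatives covered scaling, offset, dim filter, variance settings, array weights, probe set summary, the replicate block and arrays left out.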

Additional observations from a re-analysis of the deposited data

How the results depend on the processing

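The count of member probe sets called was 0 in all alternatives that kept the 6 arrays (deposited scaling, median centring, offsets of 1 and 64, the filter on dim probe sets, robust variance with trend, weighted arrays, the replicate block, and the brightest or mean probe set of a gene). Leaving out 1 array gave 0 to 1, the 1 without control replicate 2, and with both arrays numbered 2 left out 0 were called without and 5 with the replicate block. Member probe sets whose groups did not overlap, 4 with all arrays, were 4 with the deposited scaling, where 3 were higher and 1 lower, and 3 with median centring, where 2 were higher and 1 lower, and also 3 with the dim filter. They ranged from 4 to 9 when 1 array was left out, where fewer arrays make separation easier, and came to 13 with both arrays numbered 2 left out and 10 without control replicate 2 in the deposited scaling. Partner genes called, 0 with 6 arrays, ranged from 0 to 2 when 1 array was left out, and were 2 with both arrays numbered 2 left out, 5 when the replicate block was added, and 2 without control replicate 2 in the deposited scaling. The replicate block with all 6 arrays changed no call.

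Of 34 named values 11 changed sign somewhere, between -0.06 and 0.10 with all arrays, and the cause was not tested. With 1 array left out the ranges of log2 fold changes were -0.0395 to 0.092 for 1443315_at (Dmd), -0.043 to 0.061 for 1417307_at (Dmd), -0.041 to 0.11 for 1427569_a_at (Utrn), -0.12 to 0.026 for 1422654_at (Sgca), -0.054 to 0.054 for 1436678_at (Sgcb), -0.065 to 0.13 for 1450805_at (Sgcd), -0.017 to 0.18 for 1419223_a_at (Dtna), -0.074 to 0.067 for 1426066_a_at (Dtna), -0.045 to 0.051 for 1453625_at (Dtna), -0.035 to 0.27 for 1417644_at (Sspn) and -0.14 to 0.19 for 1417645_at (Sspn). With array weights the value was -0.019 for 1417307_at, -0.011 for 1427569_a_at, -0.043 for 1426066_a_at and -0.0052 for 1453625_at. With both arrays numbered 2 left out, without and with the replicate block alike, the value was -0.028 for 1417307_at, -0.036 for 1427569_a_at, 0.0402 for 1436678_at, -0.0201 for 1426066_a_at and -0.0695 for 1453625_at. Without control replicate 2 in the deposited scaling the value was 0.0014 for 1436678_at, -0.067 for 1450805_at, -0.024 for 1426066_a_at and -0.014 for 1453625_at. With an offset of 1 the value was -0.0018 for 1426066_a_at. Depth here is signal over the floor: 8 of 25 member probe sets read below 16 units on every array.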

Other observations

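The RefSeq promoter windows used here covered 7 of the 8 members, all but Dtna, 10 windows in all. The Sgcb window held 24 CpG dinucleotides, 1 GC box and 0 E-boxes. The Sgcd window held 12 CpG dinucleotides, 1 GC box and 2 E-boxes. The Utrn window held 2 CpG dinucleotides, 0 GC boxes and 7 E-boxes. The median over all windows was 7 CpG dinucleotides.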
